A study of Rattus norvegicus with 17 samples.

Results

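Synaptic and neuronal adhesion molecules are the surface proteins through which neurons and glia hold on to each other, and 42 of the 34322 genes in the count table make up the set described here. The genes were taken by name from 12 families of such proteins. All 42 were found, of which 41 were spelled as listed and 1, LRRTM1, stood in capitals in the table. RNA was sequenced from the hippocampus of 17 Long-Evans rats aged 36 to 38 days, the offspring of dams on 3 diets. Ethanol (ET) dams drank a liquid diet with 6.7% ethanol, supplying 36% of calories, from gestational day 0 to 20. Pair-fed (PF) dams were given the ethanol-free liquid diet in amounts matched to an ET dam, and ad libitum (AD) dams ate standard chow freely. Both liquid diets ended on gestational day 20, when the dams returned to chow. Of the 17 offspring, 5 were from the ET dam (2 of them female), 6 from the PF dam and 6 from the AD dam (3 female in each). Each diet was thus 1 litter, and the effects of diet and of litter cannot be told apart. P-values therefore measure the spread between littermates of 1 dam per diet.

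Adhesion molecules of this kind work across the gap between cells. Immunoglobulin proteins such as NCAM, L1 and the contactins guide axons and hold myelin to them, while neurexins bind neuroligins and LRRTMs, and latrophilins bind teneurins, across the synaptic cleft. In the hippocampus, combinations of these proteins help to specify which neurons connect and how excitatory and inhibitory synapses mature, and NCAM and L1 have long been studied as targets of ethanol in developing neurons.

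Between 10853947 and 17498392 fragments were counted per library, with a median of 13538433. Values are given as normalized counts, scaled for library size and composition over all 17 libraries, and levels are not compared between genes because gene lengths were not used. The study left out 3 libraries, 1 of each diet (ET replicate 2, PF animal 11f6 and AD replicate 4), which held 87690 to 113016 normalized counts of Ttr, the main transcript of the choroid plexus, against at most 14509 in the other 14. Comparisons were made in the other 14 libraries (4 ET, 5 PF and 5 AD), and 3 of the 14 were from the right hippocampus (PF replicates 1 and 6 and AD replicate 3). Neuronal and hippocampal marker genes were present in every library. The labelled sex went against the Y-linked genes in 2 of the 17 libraries, both of the AD diet.

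Differences between the diets were small for these genes. All 42 passed the filter on low counts in each of the 3 comparisons, and 0 passed the study's threshold in any of them, namely a log2 fold change beyond 1.5 in size at an adjusted p-value below 0.01 (edgeR quasi-likelihood test with Benjamini-Hochberg adjustment over all genes tested). Over all genes, that threshold was passed by 2.17% in ET against PF, 0.0127% in ET against AD and 2.05% in PF against AD. At an adjusted p-value below 0.05 regardless of fold change, the members called were 0 in ET against PF (4.13% of 16068 genes tested), 0 in ET against AD (0.0127% of 15749) and 2 in PF against AD, which is 4.76% of the members beside 5.17% of the 15960 genes tested. The 2 were Cntn5, higher in PF (4.32% of all genes were called higher), and Cadm4, lower in PF (0.846% lower). DESeq2 called 1, 0 and 4 members in the same 3 comparisons.

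The fold changes themselves were small and could be bounded. In ET against PF the members ran from -0.41 to 0.27 on the log2 scale, with 14 above 0 and 28 below, a median of -0.05 and a median absolute value of 0.08, beside 0.01 and 0.09 over all genes tested. Over all genes tested, 8339 were above 0 and 7729 below. The 95% interval of the fold change lay within 1.5-fold in either direction for 37 of the 42 members (12439 of all 16068 genes). It lay within 2-fold for 42 of 42 (14776 of all genes). In ET against AD the range was -0.21 to 0.32, with 25 above 0 and 17 below, and 40 intervals lay within 1.5-fold. Over all 15749 genes tested there, 8090 were above 0, 7659 below and 13283 intervals within 1.5-fold. In PF against AD the range was -0.31 to 0.55, with 30 above 0, 12 below and a median of 0.06, and 39 intervals lay within 1.5-fold. Over all 15960 genes tested there, 7831 were above 0, 8129 below and 13153 intervals within 1.5-fold. ET against PF and PF against AD share the 5 PF libraries, so opposite signs in these 2 comparisons are not independent of each other.

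**Figure D1:**
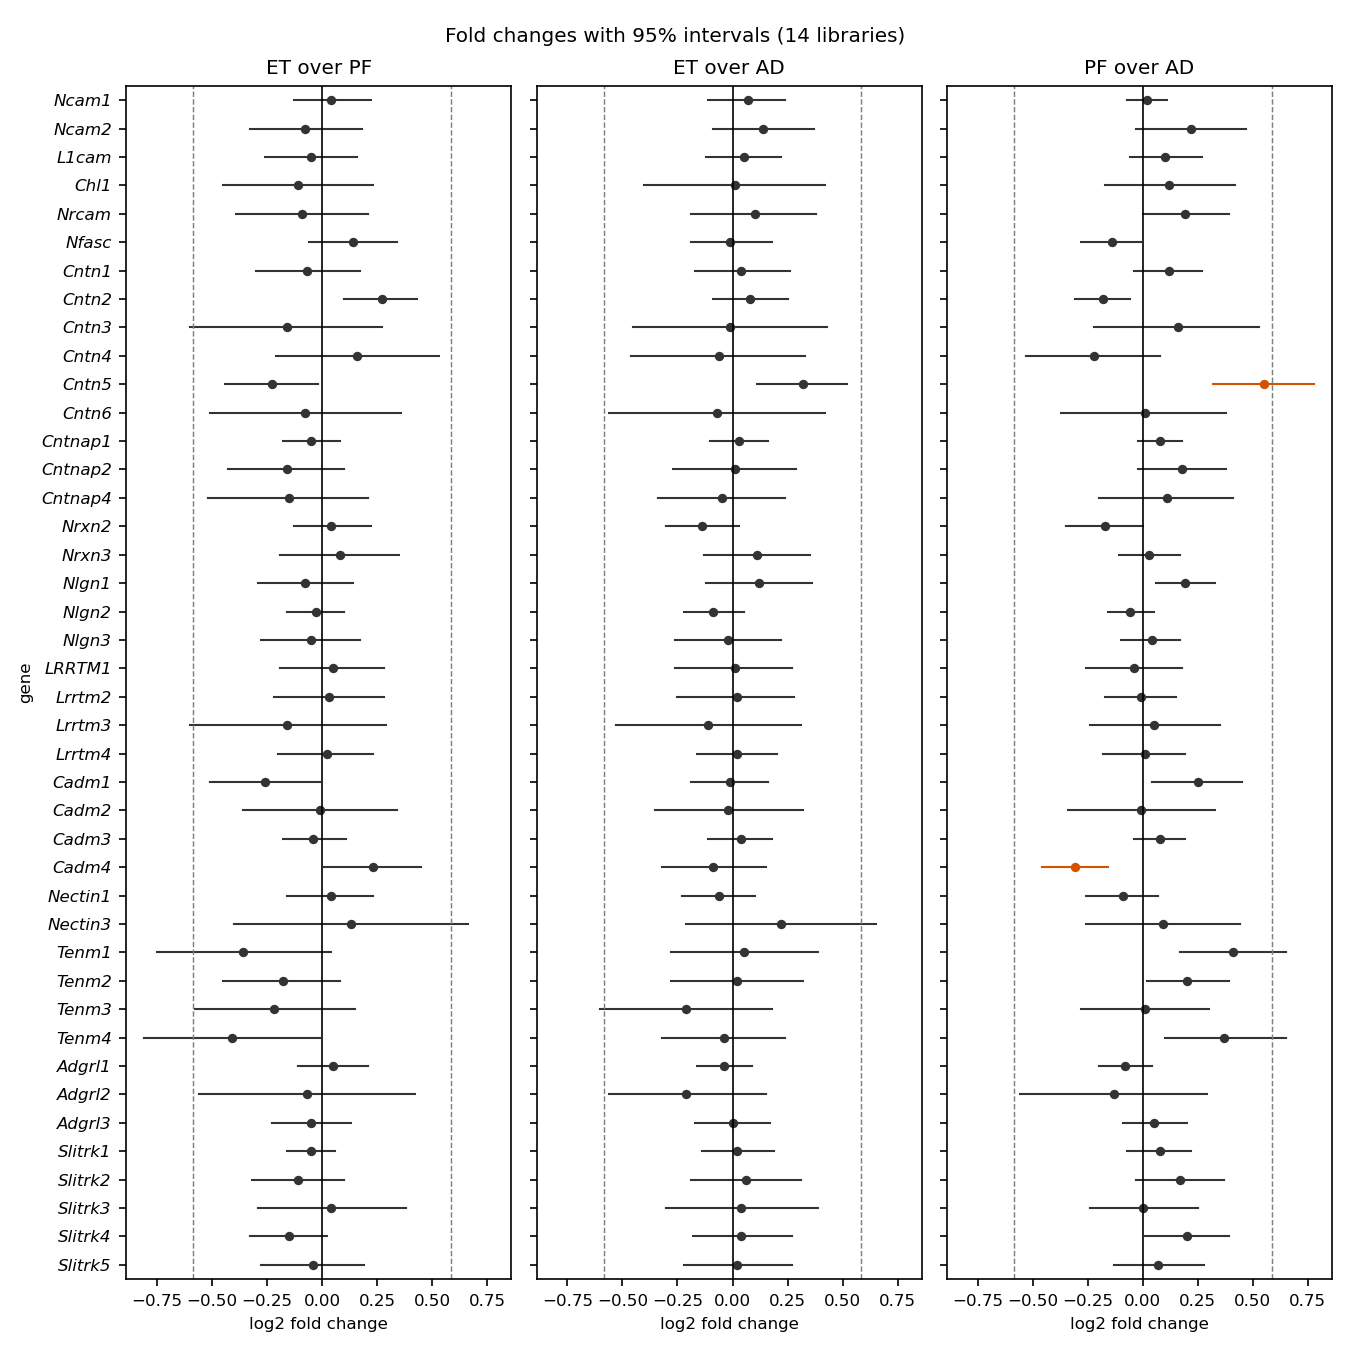
Log2 fold change (x axis) of each of the 42 genes (y axis, by family) in ET over PF, ET over AD and PF over AD, with 95% intervals from the edgeR fit. Dashed lines mark 1.5-fold, and orange marks an adjusted p-value below 0.05, which Cntn5 and Cadm4 reached in PF over AD.

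Counted without adjustment, 5 members had a p-value below 0.05 in ET against PF, which is 11.9% of the members and 11.9% of all genes tested. These were 2 higher in ET, Cntn2 and Cadm4 (4.72% of all genes), and 3 lower, Cntn5, Tenm4 and Cadm1 (7.21%). In ET against AD the count was 1 (Cntn5), or 2.38% beside 2.74% of all genes. In PF against AD it was 10, or 23.8% beside 16.4% of all genes, with 7 higher in PF (Cntn5, Tenm1, Nlgn1, Tenm4, Cadm1, Tenm2 and Slitrk4, beside 9.66% of all genes) and 3 lower (Cadm4, Cntn2 and Nfasc, beside 6.77%). The groups did not overlap for 1 member in ET against PF (Cntn2, beside 6.78% of all genes), 1 in ET against AD (Cntn5, beside 1.19%) and 4 in PF against AD (Cntn5, Cadm4, Cntn2 and Nlgn1), which is 9.52% of the members beside 6.6% of all genes.

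The contactins are immunoglobulin proteins anchored to the outer face of the membrane, and they held the largest difference of the set. Cntn5, which takes part in the wiring of sensory circuits, measured 142, 177, 186, 194 and 194 normalized counts in the AD libraries. The PF libraries held 227, 232, 262, 286 and 304, and the ET libraries 210, 223, 225 and 234. Every PF and every ET library stood above every AD library, and ET overlapped the lower end of PF. The means were 179 ± 21.7 in AD (SD, n = 5), 262 ± 33.6 in PF (SD, n = 5) and 223 ± 10 in ET (SD, n = 4). Cntn5 was 1.46-fold higher in PF than in AD, a log2 fold change of 0.55 (SE 0.10, 95% interval 0.32 to 0.78, edgeR adjusted p = 0.0069). ET against AD gave 0.32 (SE 0.09) and ET against PF -0.23 (SE 0.10), with adjusted p-values of 1 and 0.36 in edgeR. With hemisphere as a covariate, the ET against PF difference was -0.34 and passed at an adjusted p of 0.038, and all 4 of these ET libraries were from the left side. The 3 libraries left out read 187 in ET, within the range of the AD libraries compared, 204 in PF and 184 in AD. Cntn5 overlaps 7 other annotated genes, all long noncoding RNAs or pseudogenes, and the strand setting of the counting is not given in the sources used here.

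The promoter windows of the 2 genes that passed are shown here because the genes moved in opposite directions in PF against AD. Each is a window of 300 bases that ends shortly after the annotated start (RefSeq, build GRCr8, written 5′ to 3′ on the gene's own strand), and capitals mark the GC box, GGGCGG or CCGCCC on the other strand, to which Sp1-type factors bind. The Cntn5 window is chr8:15731908-15732207 on the minus strand, and the Cadm4 window chr1:89202839-89203138 on the plus strand.
Cntn5: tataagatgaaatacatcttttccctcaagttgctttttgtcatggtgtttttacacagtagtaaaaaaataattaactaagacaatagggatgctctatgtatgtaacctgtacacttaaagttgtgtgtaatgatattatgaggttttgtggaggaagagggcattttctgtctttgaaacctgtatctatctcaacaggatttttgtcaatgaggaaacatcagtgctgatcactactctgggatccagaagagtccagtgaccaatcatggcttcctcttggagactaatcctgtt
Cadm4: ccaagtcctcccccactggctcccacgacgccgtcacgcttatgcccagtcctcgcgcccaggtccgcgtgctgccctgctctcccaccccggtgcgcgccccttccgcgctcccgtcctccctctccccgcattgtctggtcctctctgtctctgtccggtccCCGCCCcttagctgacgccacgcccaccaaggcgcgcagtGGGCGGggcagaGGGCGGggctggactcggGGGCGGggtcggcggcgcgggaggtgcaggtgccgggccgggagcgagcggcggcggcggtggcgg
The Cntn5 window held 0 CpG dinucleotides and 0 GC boxes at 36.7% GC, and the Cadm4 window held 37 CpG dinucleotides and 4 GC boxes at 76% GC. The GC box occurred in 33.1% of 33469 rat promoter windows and in 7 of the 30 members with a window in the table, and the median window held 7 CpG dinucleotides over all promoters. These matches describe the letters of the windows, not binding. Whether the annotated starts are those used in these libraries was not tested, and the Cntn5 window holds ATG, the start codon, near its end. It may therefore not be a promoter, and nothing is concluded from its contrast with the Cadm4 window.

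Cntn2, also called TAG-1, is a contactin of axons and of myelin-forming glia that holds the juxtaparanodal membranes beside the node of Ranvier together. Its ET libraries held 2555, 2653, 3023 and 3132 normalized counts and its PF libraries 2153, 2342, 2353, 2472 and 2502. No ET library was as low as any PF library. The difference was 0.27 on the log2 scale, or 1.20-fold (SE 0.08, 95% interval 0.10 to 0.43), and did not pass the adjustment (edgeR adjusted p = 0.10). It passed with DESeq2 (adjusted p = 0.032), with all 11 ET and PF libraries in edgeR (0.045) and in 1 edgeR fit of the 3 diets (0.039), which makes 3 of 18 settings, over which the adjusted p ran from 0.032 to 0.38. The AD libraries held 2576, 2577, 2612, 2735 and 2946, also all above PF, with a PF against AD difference of -0.18 (SE 0.06, edgeR adjusted p = 0.093). AD replicate 4, one of the libraries left out, lay at 2400 within the PF range.

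Cntn1, the contactin of the paranodal junction and the member of the family with the most counts, averaged 7253 ± 1096 in ET (SD, n = 4), 7611 ± 665 in PF and 7030 ± 499 in AD (SD, n = 5 each). Its differences were -0.07, 0.04 and 0.12 on the log2 scale in ET against PF, ET against AD and PF against AD, none past the test. Cntn3, Cntn4 and Cntn6, which act in axon and dendrite growth, had no unadjusted p-value below 0.05 in any comparison, with log2 differences from -0.22 to 0.16. The contactin-associated proteins, which join contactins to the cytoskeleton near the node, passed no test. Cntnap1, the partner of Cntn1 at the paranode, held 4939 to 5816 normalized counts across the 14 libraries. Its log2 differences were -0.05 (SE 0.06), 0.03 (SE 0.06) and 0.08 (SE 0.05). Cntnap2, which gathers potassium channels beside the node with Cntn2, and Cntnap4, found at presynaptic endings of interneurons, also passed no test.

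The SynCAMs (Cadm1 to Cadm4) are immunoglobulin proteins of synapses and of the contact between axon and glia. Cadm4, which myelinating glia use to bind the axon, held 1662, 1688, 1710, 1796 and 1949 normalized counts in PF. The AD libraries held 1979, 2008, 2237, 2271 and 2436, and the ET libraries 1771, 1800, 2283 and 2390. All PF libraries lay below all AD libraries, while the ET libraries were split, 2 within the PF range and 2 within the AD range. AD replicate 4, left out, lay at 1892 within the PF range. The means were 1761 ± 117 in PF (SD, n = 5), 2186 ± 192 in AD (SD, n = 5) and 2061 ± 321 in ET (SD, n = 4). Cadm4 was 1.24-fold lower in PF than in AD, at -0.31 on the log2 scale (SE 0.07, 95% interval -0.46 to -0.16, edgeR adjusted p = 0.017). ET against PF gave 0.23 (SE 0.10, adjusted p = 0.39), 0.15 without ET replicate 1, and ET against AD -0.09 (SE 0.11, adjusted p = 1) in edgeR. The PF against AD call was lost in edgeR without PF replicate 1 (adjusted p = 0.05), without AD replicate 2 (0.051) and in 1 fit of the 3 diets (0.066), with log2 differences of -0.30, -0.30 and -0.31.

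Cadm1, a homophilic molecule that promotes excitatory synapses, had its highest value in PF replicate 1 at 3248 normalized counts, with the other PF libraries at 2273, 2280, 2557 and 2600. The ET libraries held 1897, 2149, 2200 and 2423 and the AD libraries 1919, 2215, 2252, 2252 and 2295. Its PF libraries overlapped both other diets. The differences were -0.26 (SE 0.11, adjusted p = 0.40) in ET against PF and 0.25 (SE 0.09, adjusted p = 0.21) in PF against AD, both in edgeR. Without PF replicate 1 the first was -0.16 (adjusted p = 0.61). Cadm2 and Cadm3, which bind other SynCAMs across the contact, differed by at most 0.08 on the log2 scale in any comparison, although Cadm2 varied widely within diets, from 5554 to 9986 normalized counts.

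**Figure D2:**
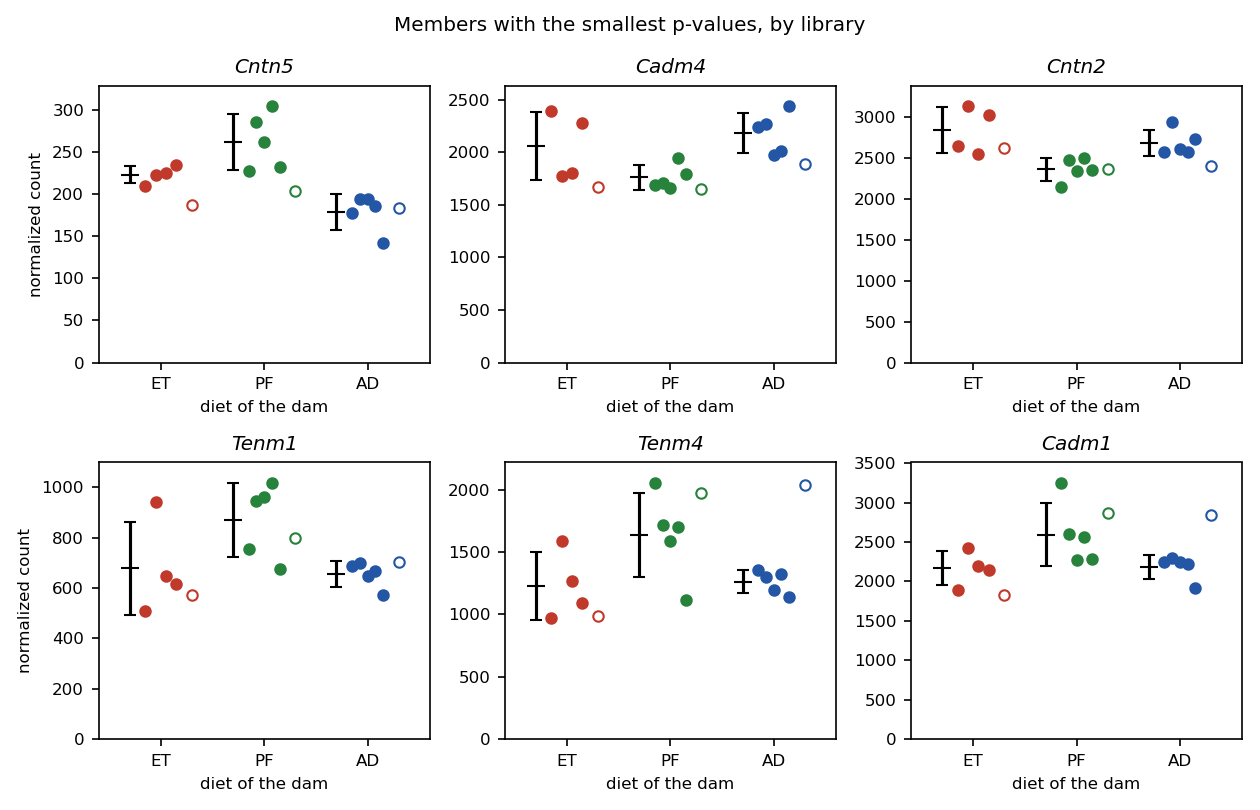
Normalized counts (y axis, from 0) of 6 genes in each library by diet of the dam (x axis), with filled circles for the 14 libraries compared, open circles for the 3 left out and black bars for the mean and SD of the filled circles. Among the filled circles, Cntn5 was lower in all 5 AD libraries than in any PF or ET library. Cadm4 was lower in all 5 PF than in all 5 AD libraries, and Cntn2 was higher in all 4 ET than in all 5 PF libraries.

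Markers of myelin and of neighbouring tissue were summed in the same libraries, and the ranges of the diets overlapped for myelin. The summed normalized counts of 7 oligodendrocyte markers (Mbp, Mog, Mag, Mobp, Cnp, Cldn11 and Mal) ran from 180361 to 245844 in ET, 139157 to 185748 in PF and 160798 to 239569 in AD. Of the 7, 6 were above 0 on the log2 scale in ET against PF, with a median of 0.37, and 6 below 0 in PF against AD, with a median of -0.29, and 0 and 1 passed an adjusted p below 0.05 in edgeR. In ET against AD all 7 were above 0, with a median of 0.07, and 0 passed. Summed thalamic markers (Tcf7l2, Slc17a6, Prkcd, Zic1, Lef1, Rora, Tnnt1 and Shox2) ran from 1417 to 2840 in ET, 1045 to 1549 in PF and 1597 to 1737 in AD. In ET against PF, 7 of the 8 could be tested and all 7 were above 0 (median 0.64, 1 past an adjusted p below 0.05 in edgeR). The paper had already reported Tnnt1 and Shox2 as higher in ET than in PF, so this list was not chosen independently of that comparison. In ET against AD 6 of 8 were above 0 (median 0.29, 0 past). In PF against AD 6 of 7 were below 0 (median -0.32, 1 past). Summed choroid plexus markers ran from 927 to 14944 in ET, 419 to 15968 in PF and 94.5 to 2107 in AD, and 6 of 8 were above 0 in ET against PF (median 0.13), 7 of 8 in ET against AD (median 1.29) and 7 of 8 in PF against AD (median 1.12), with 0 past the same threshold in each. The neuronal markers overlapped between diets, at 136279 to 169905, 141828 to 180217 and 149714 to 164593. None of these markers was at 0 in any library, and their part in the differences of the adhesion genes was not tested. In whole tissue, fewer cells of a type and less RNA per cell cannot be told apart.

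**Figure D3:**
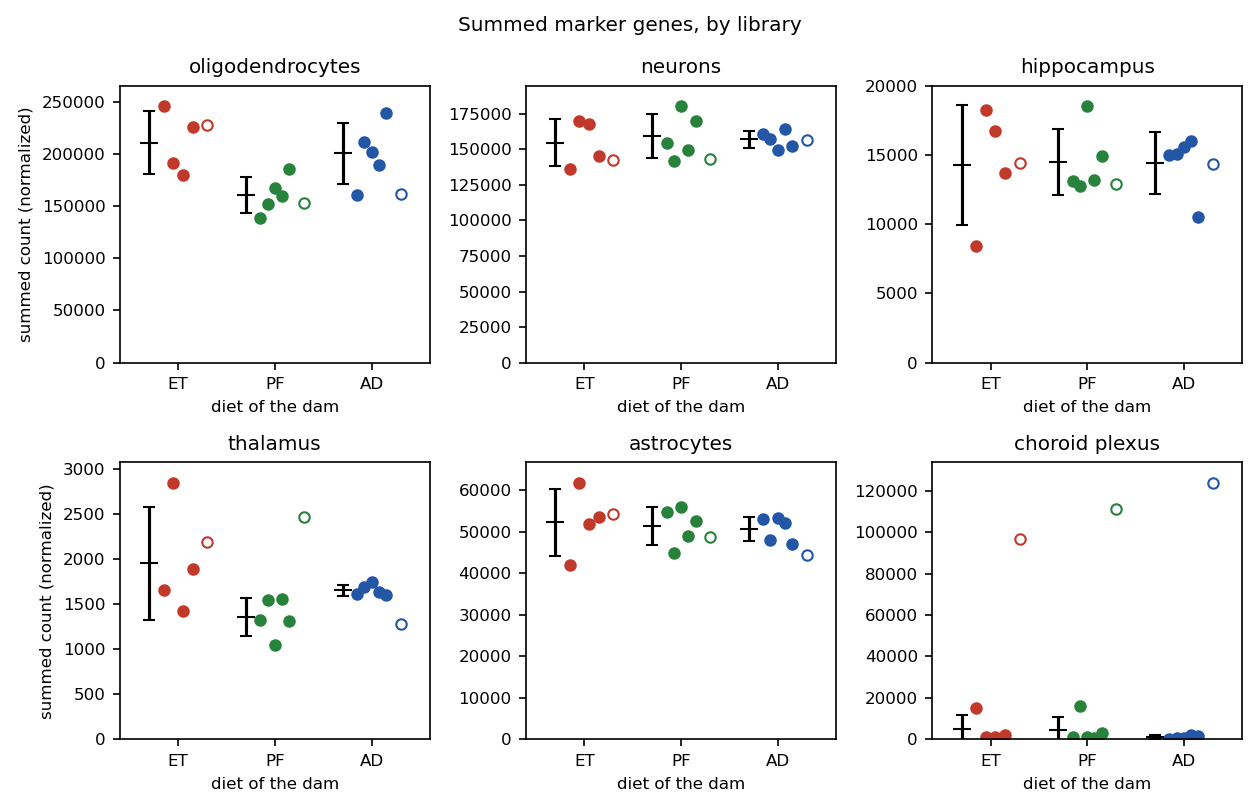
Summed normalized counts (y axis, from 0) of marker genes of 6 cell types or regions in each library by diet of the dam (x axis), with filled circles for the libraries compared, open circles for the 3 left out and black bars for mean and SD. Oligodendrocyte sums were 139157 to 185748 in PF and 180361 to 245844 in ET, while the open circles stood far above the others in the choroid plexus panel.

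The teneurins are large presynaptic and postsynaptic proteins that bind latrophilins and each other, and they map connections between hippocampal fields. They held the largest family median of the set. All 4 were below 0 in ET against PF, with a median log2 difference of -0.29, and all 4 above 0 in PF against AD, with a median of 0.29, while the median in ET against AD was -0.01. None passed the adjustment, and the first 2 medians share the PF libraries. Tenm1 held 675, 755, 944, 961 and 1017 normalized counts in PF, 572, 646, 669, 687 and 700 in AD and 510, 615, 648 and 942 in ET. All but the lowest PF library lay above every AD library, and the highest ET library reached the PF range. PF against AD gave 0.41 (SE 0.11, 95% interval 0.17 to 0.65, edgeR adjusted p = 0.052), and over 18 settings the adjusted p ran from 0.0057 to 0.17, with 7 below 0.05. ET against PF gave -0.36 (SE 0.18, edgeR adjusted p = 0.50), from -0.24 without ET replicate 1 to -0.56 without ET replicate 3. Tenm1 overlaps the protein-coding gene Sh2d1a in the GRCr8 gene list.

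Tenm4, the teneurin required for myelination and axon guidance, held 1117, 1590, 1697, 1716 and 2053 normalized counts in PF, 1141, 1193, 1297, 1325 and 1356 in AD and 969, 1090, 1265 and 1591 in ET. As for Tenm1, PF replicate 6 was the low PF library. PF against AD gave 0.37 (SE 0.13, edgeR adjusted p = 0.15), and without PF replicate 6 the difference was 0.48 and passed (edgeR adjusted p = 0.003). ET against PF gave -0.41, the largest decrease of the set (SE 0.18, 95% interval -0.81 to -0.01, edgeR adjusted p = 0.40). Among the libraries left out, PF animal 11f6 held 1975 and AD replicate 4 held 2033, the latter above every other AD library. Tenm2, with the most counts of the family, and Tenm3, which matches CA1 neurons to their subicular targets, gave 0.20 (SE 0.09) and 0.01 (SE 0.13) in PF against AD and -0.18 (SE 0.12) and -0.22 (SE 0.16) in ET against PF.

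The latrophilins (Adgrl1 to Adgrl3) are adhesion receptors coupled to G proteins that bind teneurins and FLRT proteins. Adgrl1 held 8350 to 10222 normalized counts in the 14 libraries, and its log2 differences were 0.05 (SE 0.07), -0.04 (SE 0.06) and -0.08 (SE 0.05) in ET against PF, ET against AD and PF against AD. Adgrl3 gave -0.05, 0.00 and 0.05. Adgrl2, which acts at entorhinal inputs to CA1 neurons, gave -0.07 (SE 0.22), -0.21 (SE 0.16) and -0.13 (SE 0.19), with intervals that reached from -0.56 to 0.42 in ET against PF. Its ET against AD value ran from -0.11 without ET replicate 4 to -0.32 without ET replicate 1. The width of that interval came from spread within each diet, where libraries lay at 454 to 899 in PF and 517 to 791 in ET.

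The neurexins are presynaptic hubs, and the neuroligins and LRRTMs are their postsynaptic ligands. Nrxn2 held 2998, 3080, 3190 and 3332 normalized counts in ET, 2662, 2828, 3174, 3303 and 3370 in PF and 3037, 3342, 3444, 3638 and 3841 in AD. The 3 groups overlapped. Nrxn2 gave 0.04 (SE 0.08), -0.14 (SE 0.07) and -0.17 (SE 0.08) in ET against PF, ET against AD and PF against AD, and Nrxn3 gave 0.08, 0.11 and 0.03. Nlgn1, the neuroligin of excitatory synapses, held 1360, 1385, 1385, 1386 and 1509 in PF and 1025, 1262, 1268, 1285 and 1299 in AD. All PF libraries were above all AD libraries, but the difference of 0.19 (SE 0.06, 95% interval 0.06 to 0.33) did not pass (edgeR adjusted p = 0.13). AD replicate 4, left out, held 1493, above 4 of the 5 PF libraries, and the difference was 0.13 with all samples (edgeR adjusted p = 0.35). The ET libraries ran from 1104 to 1570, across both groups. Nlgn2, the neuroligin of inhibitory synapses, gave -0.03 (SE 0.06), -0.09 (SE 0.06) and -0.06 (SE 0.05), and Nlgn3, found at both kinds of synapse, -0.05 (SE 0.10), -0.02 (SE 0.11) and 0.04 (SE 0.06). The ET against AD value of Nlgn2 was -0.05 without ET replicate 1 and -0.14 with all samples.

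The 4 LRRTM genes, which organize excitatory synapses, had family medians of 0.02, 0.01 and 0.00 in the 3 comparisons. LRRTM1 held 942 to 1301 normalized counts in ET, 940 to 1229 in PF and 872 to 1253 in AD, and its differences were 0.05 (SE 0.11), 0.01 (SE 0.12) and -0.04 (SE 0.10). LRRTM1, Lrrtm2 and Lrrtm3 overlap the spans of catenin genes (Ctnna2, Ctnna1 and Ctnna3). Exons were not compared, so whether any fragments could be shared was not tested. The nectins bind each other across puncta adherentia and connect to actin through afadin, and neither passed a test. Nectin1 gave 0.04 (SE 0.09), -0.06 (SE 0.07) and -0.09 (SE 0.07). Nectin3, the dendritic partner of axonal Nectin1, gave 0.13 (SE 0.24), 0.22 (SE 0.19) and 0.09 (SE 0.16), and its interval in ET against PF, -0.40 to 0.66, was the widest of the set in that comparison.

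Ncam1 and L1cam are the members the study discusses. Ncam1, the neural cell adhesion molecule, held 6846, 7522, 7842 and 9113 normalized counts in ET, 7500, 7502, 7580, 7623 and 7826 in PF and 7155, 7315, 7420, 7688 and 7850 in AD. The ET range enclosed both control ranges. The difference was 0.04 in ET against PF (SE 0.08, 95% interval -0.13 to 0.22, edgeR adjusted p = 0.93), 0.07 in ET against AD (SE 0.08) and 0.02 in PF against AD (SE 0.04), and without ET replicate 3 the first 2 turned to -0.04 and -0.02. L1cam, which drives neurite growth, held 2362, 2446, 2509 and 2944 in ET, 2221, 2601, 2700, 2817 and 2966 in PF and 2242, 2416, 2497, 2611 and 2631 in AD. Its 3 groups overlapped throughout. The difference was -0.05 in ET against PF (SE 0.09, 95% interval -0.26 to 0.16, edgeR adjusted p = 0.94) and 0.05 in ET against AD (SE 0.08, 95% interval -0.12 to 0.22). With libraries left out in turn, the ET against PF value ran from -0.12 without ET replicate 3 to -0.01 without ET replicate 5 or PF animal 11f5. For both genes a 1.5-fold change in either direction lay outside the interval.

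The other members of these families passed no test. Ncam2, the NCAM of olfactory and hippocampal axons, gave -0.08 (SE 0.12) in ET against PF and 0.14 (SE 0.10) in ET against AD. The latter ran from 0.07 without AD replicate 6 to 0.21 without ET replicate 4. Nrcam, which anchors channels at the node, gave -0.09 (SE 0.14), 0.10 (SE 0.13) and 0.19 (SE 0.09) in the 3 comparisons. Chl1, a close homologue of L1, had no difference above 0.12 in size. Nfasc, which builds the node and the paranode from the neuronal and the glial side, gave 0.14 (SE 0.09) in ET against PF and -0.14 (SE 0.06, edgeR adjusted p = 0.27) in PF against AD. Nfasc and Cntn2 are neighbours on the chromosome in the GRCr8 list. The 5 SLITRK genes, which bind receptor tyrosine phosphatases across the synapse, had medians of -0.05, 0.04 and 0.08, and all 5 were above 0 in ET against AD, by 0.02 to 0.06. Slitrk3, which acts at inhibitory synapses and had the most counts of the family, gave 0.04 (SE 0.15), 0.04 (SE 0.15) and 0.00 (SE 0.11).

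**Figure D4:**
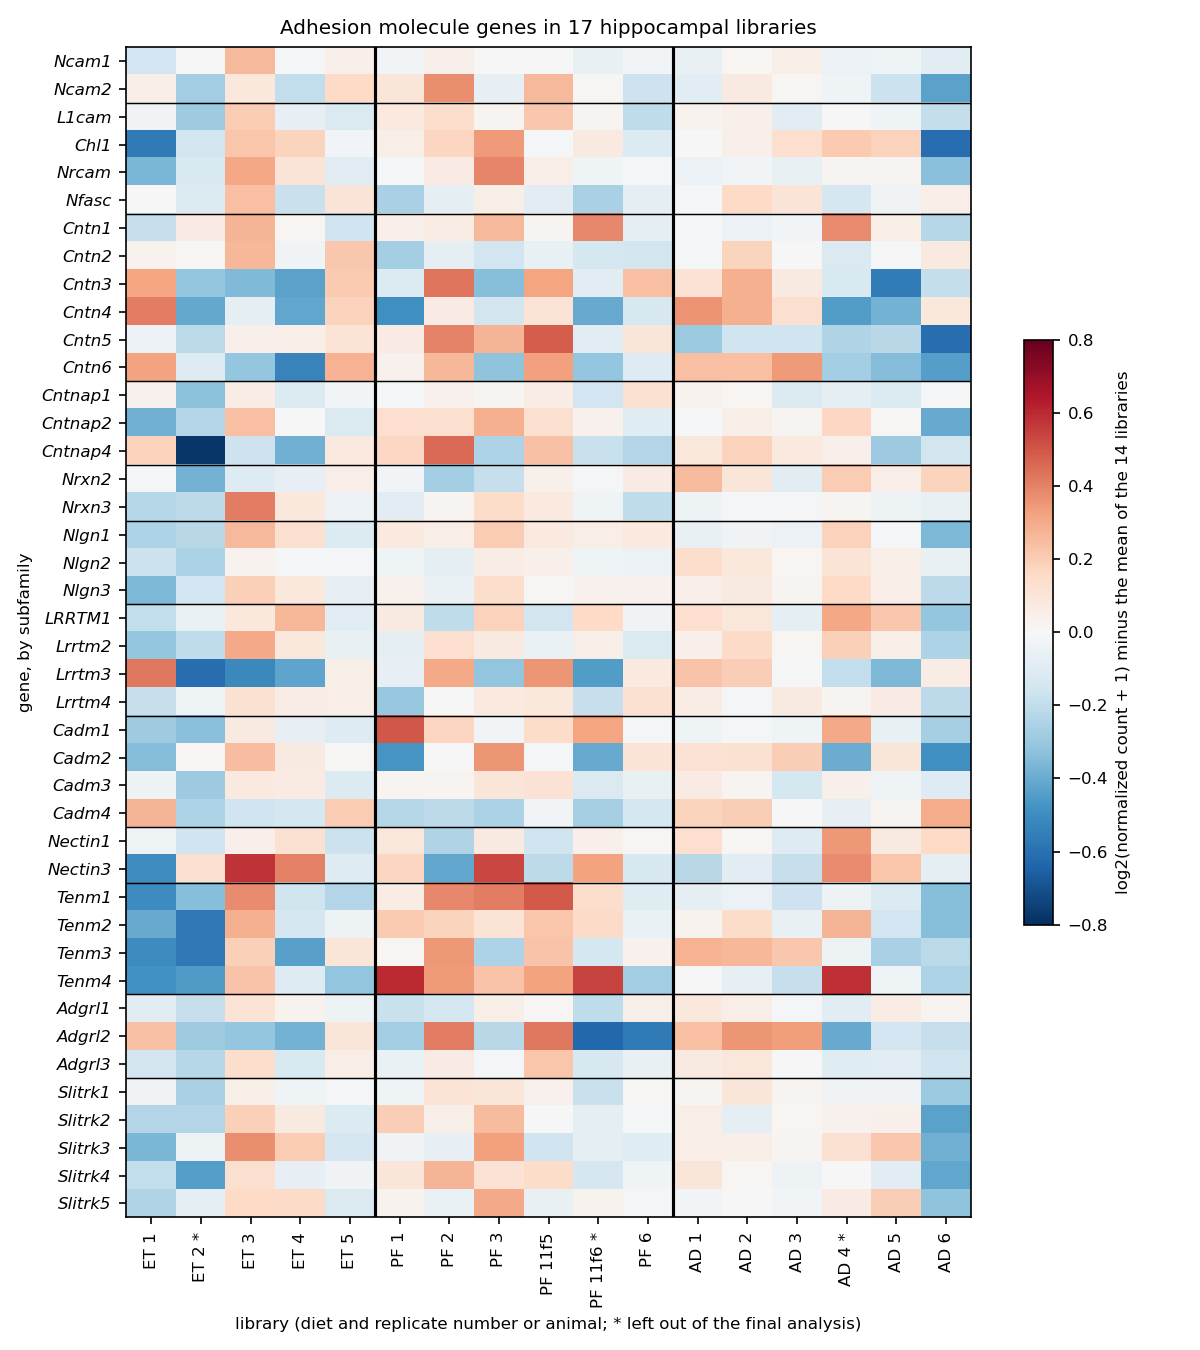
Log2(normalized count + 1) of the 42 genes (rows, by family) in the 17 libraries (columns, by diet), less the mean of the 14 libraries compared, from blue (lower) to red (higher), with stars on the 3 libraries left out. Rows change colour between libraries of 1 diet, as for the SLITRK genes, which are pale in AD replicates 1 to 3 and blue in AD replicate 6.

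Partners of these molecules were counted in the same way. Of 59 ligands, receptors and scaffolds listed, 57 were found, and 0 of the 57 passed an adjusted p below 0.05 in ET against PF, 0 in ET against AD and 1 in PF against AD (edgeR), beside the shares of all genes given above. The 1 was Negr1, an immunoglobulin protein of the IgLON family that regulates neurite growth. Its PF libraries held 2484, 2606, 2734, 2785 and 3116 normalized counts, its AD libraries 2113, 2293, 2301, 2316 and 2466 and its ET libraries 2140, 2307, 2391 and 2446. In the 14 libraries PF stood above both other diets without overlap, although AD replicate 4, left out, lay at 2565 within the PF range. PF was higher than AD by 0.26 (SE 0.06, adjusted p = 0.038), while ET against PF gave -0.24 (SE 0.07, adjusted p = 0.14). The call in PF against AD was lost with hemisphere as a covariate, with the replicate number as a block, and without any of 7 single libraries (PF replicates 1 and 6, PF animal 11f5 and AD replicates 2, 3, 5 and 6).

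Cbln4, a secreted protein that binds neurexins, had the largest log2 difference of the list. The PF libraries held 84.3, 104, 306, 529 and 542 normalized counts, the ET libraries 71.1, 84, 87 and 102 and the AD libraries 79.3, 93.5, 101, 139 and 247. PF was split, with 3 high libraries, 1 in the range of ET and 1 just above it. ET against PF gave -1.86 (SE 0.55, 95% interval -3.07 to -0.65, edgeR adjusted p = 0.12), and passed in DESeq2 and, in edgeR, without PF replicate 3 or PF replicate 6. Cntnap3, a relative of the members Cntnap1 and Cntnap2, had the same 3 high PF libraries, at 173, 247 and 368 beside 69.4 and 80.3, and an ET against PF difference of -1.32 (SE 0.47, edgeR adjusted p = 0.23). In ET against AD the smallest p-values among partners belonged to Lrfn1 and Lrfn3, postsynaptic SALM proteins, at -0.23 each (SE 0.07 and 0.10), and Adgrb1, a receptor of dendritic spines, at -0.14 (SE 0.07), each with an edgeR adjusted p of 1.

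No member's difference between ET and PF was found to depend on sex. In the fit of sex, diet and their interaction in ET and PF, 0 of the 42 members had an unadjusted p-value below 0.05 for the interaction, beside 1.4% of 16484 genes, and 0 genes passed after adjustment in edgeR. The smallest p-value among the members was that of Cntnap1, at a log2 difference of -0.19 (SE 0.12). With 2 ET libraries of each sex among the 14, these intervals are wide.

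Spread between littermates was wide beside the differences between diets. The SD within diets had a median of 0.17 on the log2 scale over the 42 genes, from 0.065 to 0.36, beside a median of 0.12 over the 10126 genes tested with at least the mean count of the lowest member. The median absolute log2 difference of the members between diets was 0.08, 0.05 and 0.10 in the 3 comparisons. The widest were Nectin3 (0.36), Cntn6 and Adgrl2 (0.35 each), Cntn3 (0.34), Lrrtm3 (0.31) and Cntn4 (0.29). Cntn6, which acts in axon growth and motor circuits, held 100, 117, 176 and 182 normalized counts in ET, 116, 135, 149, 175 and 183 in PF and 107, 114, 172, 172 and 184 in AD. In each diet its libraries stood in a high and a low set with a gap between them or a few in the middle. The high Cntn6 values were those of ET replicates 1 and 5, PF replicate 2 and animal 11f5, and AD replicates 1 to 3.

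The same libraries were high for Adgrl2, at 791 and 719 in ET, 892 and 899 in PF and 793, 859 and 849 in AD, while the others ran from 454 to 603. Cntn4, Cntn3 and Lrrtm3 mostly ran high in these libraries too, with Lrrtm3 at 724 and 560 in ET replicates 1 and 5 and 378 and 403 in replicates 3 and 4. Nectin3 ran the other way, at 481 and 634 in ET replicates 1 and 5 and 1017 and 901 in replicates 3 and 4. In PF, Nectin3 was at 510 and 588 in replicate 2 and animal 11f5 and at 986 in replicate 3. This order of libraries was noticed in the data and was not tested, and each diet held libraries at both ends of it.

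**Figure D5:**
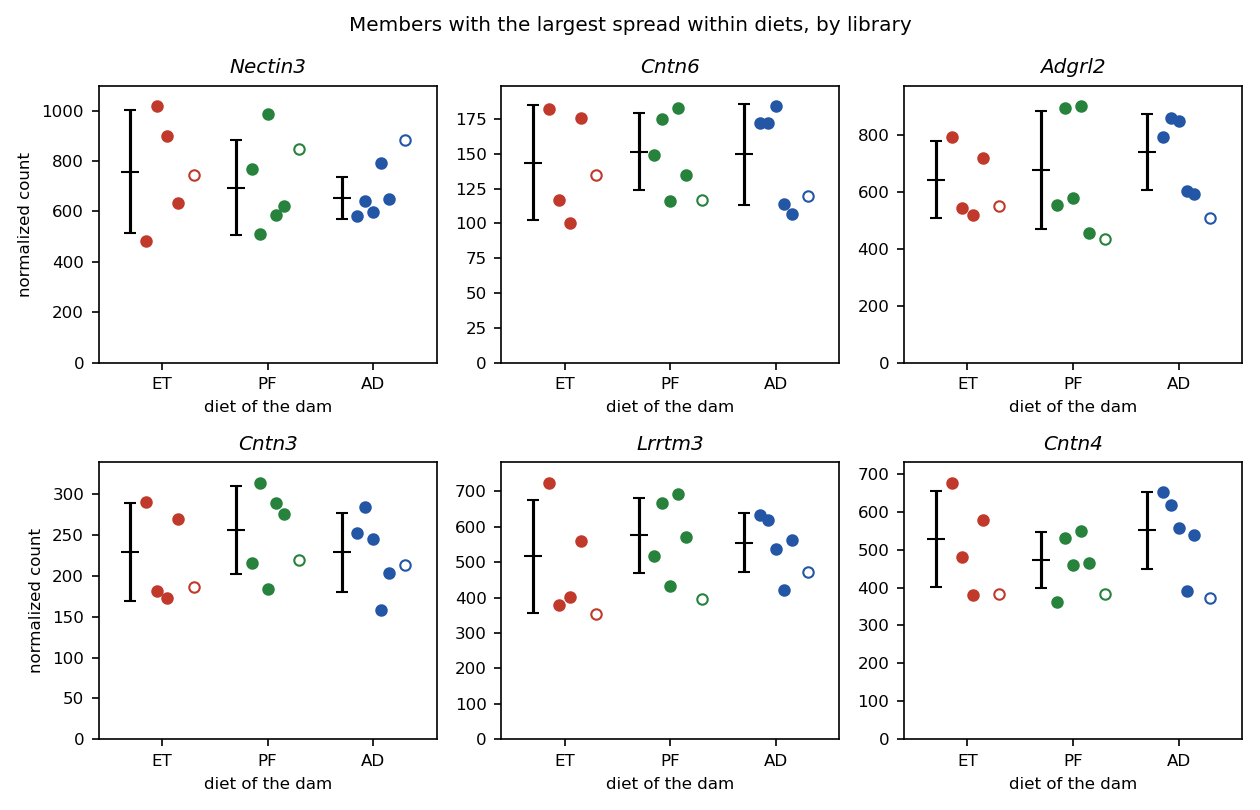
Normalized counts (y axis, from 0) in each library by diet of the dam (x axis) for the 6 genes with the widest spread within diets, with filled circles for the libraries compared, open circles for the 3 left out and black bars for mean and SD. For Adgrl2, libraries of every diet lay both at 719 to 899 and at 454 to 603, with none between.

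Single libraries also stood apart for many neuronal members at the same time. AD replicate 6 was the lowest of the 5 AD libraries for Cadm2, at 5554 beside 8371 to 8971, for Nrcam, at 8580 beside 10385 to 10989, and for Chl1, at 3131 beside 4771 to 5429. Its summed hippocampal markers were 10514, below the 15007 to 16024 of the other 4, its neuronal markers 152546, within the range of the others, and its oligodendrocyte markers 239569, the highest of the diet. ET replicate 1 was likewise the lowest ET library for Nrcam (8402), Chl1 (3236) and Tenm1 (510), with summed hippocampal markers of 8465 beside 13735 to 18238, neuronal markers of 136279, the lowest of the 17 libraries, and oligodendrocyte markers of 245844, the highest. Its choroid plexus markers were 14944 beside 927 to 2210 in the other 3 ET libraries compared. The part of these markers in the members' values was not tested.

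The 3 libraries rich in choroid plexus transcripts differed among themselves in these genes. In ET replicate 2, 18 of the 42 members (42.9%, beside 17.7% of 16181 genes tested) lay below every other ET library and 0 above (20.6% of genes), with a median log2 difference from the ET mean of -0.21 and the lowest value for Cntnap4 (-0.71). ET replicate 2 was also the 1 right hippocampus of the 5 ET libraries, so side and choroid plexus content cannot be told apart in it. In PF animal 11f6, 13 lay below (31%, beside 16.2% of genes) and 1, Cntn1, above (2.38%, beside 20.3%), with a median of -0.09. In AD replicate 4 more lay above than below, with 6 below (14.3%, beside 18.8% of genes) and 14 above (33.3%, beside 21.6%), a median of 0.07 and the highest value for Tenm4 (0.69). Cntn5 in ET and PF, and Cadm4 in all 3 diets, were below every other library of the diet. Over all genes tested the medians of these libraries were within 0.01 of 0.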

How the data were processed

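RNA from 17 hippocampi was sequenced as stranded paired-end mRNA libraries. The authors trimmed the reads, mapped them with Bowtie2 2.4.2 (assembly mRatBN7.2) and counted fragments on exons with featureCounts 2.0.1, at a minimum mapping quality of 10, letting reads count for multiple features. The deposited values have the form of expected counts, since the authors averaged the fragments of each gene over 3 technical replicates and did not normalize them. Of the 42 members, 25 overlap another annotated gene of the GRCr8 list, 7 of them a protein-coding gene. Overlap was taken over whole gene spans with introns, so it does not show that exons or counted fragments were shared. The strand setting of the counting is not given in the sources used here.

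Counts were rounded, filtered with filterByExpr, scaled by TMM and compared between pairs of diets by quasi-likelihood testing (edgeR 4.0.16, R 4.3.3) in the 14 samples of the study's final analysis, with Benjamini-Hochberg adjustment over all genes tested. Standard errors and 95% intervals come from the same fit. Plots of single libraries on a log scale used a pseudocount of 1. Columns carry animal names, which the sample labels lack. The header of the study's own counts gives the diet, sex and hemisphere of each animal, and these were matched, with the number, to the labels. The 2 libraries whose labelled sex went against the Y-linked genes were AD replicates 1 and 2, so their replicate numbers are uncertain. PF males 11f5 and 11f6 are named by animal, since no label gives their replicate number. No 2 libraries of a diet were alike within sampling noise (smallest chi-square per gene 3.06 over 40 pairs). Same-numbered samples are different animals, and the fits reported did not treat them as pairs. The edgeR and DESeq2 fits of ET against PF were tested on simulated counts, with large changes only.

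The members and the lists of partners and markers were chosen with earlier results of these data known, and 1 gene of the oligodendrocyte list is not reported here. Genes named in the text are those with an adjusted p-value below 0.05, the 6 members with the smallest p-value in each comparison, the member with the most counts in each family, Ncam1 and L1cam, and the partners with an adjusted p-value below 0.05 in a comparison or, where there was none, the 3 with the smallest p-value. Other members are named for their values, and Cntn6, Adgrl2, Nectin3, Chl1 and the like were singled out after their values were seen. The alternatives were DESeq2 1.42.0, median-of-ratios scaling, no filter on low counts, all 17 samples, sums of technical replicates, a fold change above 1.5, 1 fit of the 3 diets, hemisphere or sex as a covariate, the replicate number as a block and leaving out each library. Promoter windows were matched by symbol to a RefSeq table of build GRCr8 (30 of 42 members), a different build from that of the counts. Depth was 10853947 to 17498392 fragments per library.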

Additional observations from a re-analysis of the deposited data

Results flagged for a closer look

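Of 72 groups of 4 or 5 libraries examined over the 24 members named by rule, 9 held a library far from the others by Dixon's criterion, which chance meets in about 1 of 20 groups. AD replicate 6 was the low library in 6 of them, with 142 normalized counts of Cntn5 beside 177 to 194 in the other AD libraries, 1919 of Cadm1 beside 2215 to 2295, 1025 of Nlgn1 beside 1262 to 1299, 8580 of Nrcam beside 10385 to 10989, 2408 of Nlgn3 beside 2835 to 2924 and 5554 of Cadm2 beside 8371 to 8971. PF replicate 3 was the high library in the other 3, with 1509 of Nlgn1 beside 1360 to 1386 in the other PF libraries, 14183 of Nrcam beside 10706 to 11359 and 1624 of Slitrk3 beside 1157 to 1265. The members share libraries, so these groups are not independent of each other. Without AD replicate 6 the PF against AD count of members with an adjusted p below 0.05 stayed at 2 in edgeR.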

How the results depend on the processing

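In ET against PF, the count of members with an adjusted p below 0.05 was 0 in the edgeR fit reported and 1 with DESeq2, with all samples or in 1 fit of 3 diets (Cntn2 in each), and 1 with hemisphere as a covariate (Cntn5). In PF against AD it was 2, 4 with DESeq2 (Cntn2 and Tenm1 added), 3 with no filter on low counts, all samples, sums of technical replicates or hemisphere (Tenm1 added in each) and 1 in 1 fit of 3 diets (Cntn5), and from 1 to 4 when libraries were left out in turn, with 4 without PF replicate 6 (Tenm1 and Tenm4 added) and 1 without AD replicate 2 (Cntn5). Cntn5 passed in 18 of 18 settings there (adjusted p 0.00025 to 0.023) and Cadm4 in 15 of 18 (0.00036 to 0.066). For partners, ET against PF went from 0 to 1 with DESeq2 (Cbln4) and with all samples (Negr1), and from 0 to 1 when libraries were left out, and PF against AD from 1 to 3 with the replicate block, to 0 with hemisphere, and from 0 to 1 when libraries were left out. The block left the members' counts at 0, 0 and 2. Same-numbered samples correlated by 0.28 on average over 2 pairs in ET against PF (-0.02 and 0.58, beside a mean of -0.05 over 14 other pairs). The averages were -0.06 over 3 pairs in ET against AD and -0.03 over 4 in PF against AD. So few pairs cannot show whether the numbers pair the samples.

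Of 424 alternatives for 24 results on single members, 403 kept direction and side of the threshold, 13 newly passed, 3 no longer passed (all Cadm4) and 5 changed sign. Those 5 lay near 0: without ET replicate 3, Ncam1 fell to -0.04 against PF and -0.02 against AD (ranges -0.04 to 0.10 and -0.02 to 0.12 over libraries left out), and L1cam to -0.02 against AD (-0.02 to 0.08), while L1cam against AD was -0.01 with all samples and against PF 0.04 with the replicate block. The cause of these changes was not tested. With 4 or 5 libraries a diet, the 95% half-width of a member in ET against PF had a median of 0.24 on the log2 scale.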
